A study of Mus musculus with 2 samples.

Results

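Tight junction genes were examined in single cells of healing mouse skin, namely the claudins *Cldn1* and *Cldn5*, the junctional adhesion molecules *F11r* (JAM-A), *Jam2* (JAM-B) and *Jam3* (JAM-C), the scaffold *Tjp1* (ZO-1) and occludin (*Ocln*). These 7 of the 27998 genes in the count matrices were taken by symbol. They were chosen by measured values of the same libraries: *Cldn1* and *F11r* were selected on their UMIs in fibroblasts of the 2 libraries and on their detection with the integrin *Itga6* in the same cells. For those comparisons the values below are a description. The wounds came from mice of 4 to 5 weeks that carried SM22rtTA, in which the *SM22α* (*Tagln*) promoter drives a doxycycline-dependent activator, together with tetO-Cre. The control carried R26-Tomato, and SM22-SmoM2 carried R26-SmoM2/Tomato, so that Cre switched on an active form of Smoothened, the transducer of Hedgehog (Hh) signals, beside the red reporter. Both groups received doxycycline (20 g/kg) from day 1 after wounding until 3 days after the wound surface had closed, when the dermis was freed of epidermis in 20 mM EDTA at 37 °C and Tomato+ cells were sorted. Each condition is 1 library made from pooled wounds of several mice, so no test between conditions was possible, and all intervals are 95% intervals for counting error only.

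Tight junctions seal the space between neighbouring cells. Claudins form the paracellular strands, junctional adhesion molecules are immunoglobulin-like proteins that recruit polarity complexes to the contact, and ZO proteins tie both to the actin cytoskeleton. In skin *Cldn1* is known as a barrier claudin of the living epidermis and *Cldn5* as the main claudin of endothelium, and dermal fibroblasts are not known for tight junctions. *Itga6*, the α6 integrin chain, binds laminin in basement membranes.

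The matrices held 2878 control and 1802 SM22-SmoM2 cells, of which 2856 and 1792 passed the filters, with a median of 8607.5 and 8837.5 UMIs per cell and 30103855 and 17814222 UMIs in all. Clusters were named from marker genes with the junction genes and *Itga6* left out of the clustering. Fibroblasts made up 1090 control cells (38.2%) and 1098 SM22-SmoM2 cells (61.3%), endothelial cells 702 and 270, Schwann cells 678 and 294, muscle cells (smooth muscle and pericyte markers) 272 and 94, immune cells 82 and 33, and keratinocytes 15 and 1. A level is given as UMIs of a gene per 1000000 UMIs of the cell type (CPM). In fibroblasts the Hh target *Ptch1* was at 12.2 CPM (control) and 147 CPM (SM22-SmoM2), and *Gli1* at 6.02 and 33.2 CPM, the direction that the labels give. The barcode list that came with the matrices does not name their columns, so barcodes shared by the libraries were not counted.

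The promoters of *Cldn1* and *F11r*, the members that the fibroblast values turn on, are shown from the RefSeq table of GRCm38.p6, cut at the first base of the annotated gene. *Cldn1* (ENSMUSG00000022512) lies on the minus strand at chr16:26356642-26371841, and the stretch shown is chr16:26371842-26372089 of that strand. *F11r* (ENSMUSG00000038235) lies on the plus strand at chr1:171437535-171464603, and the stretch shown is chr1:171437311-171437534. Capitals mark the E-box CACCTG on either strand, a motif bound by Snail-family repressors of junction genes.
Cldn1: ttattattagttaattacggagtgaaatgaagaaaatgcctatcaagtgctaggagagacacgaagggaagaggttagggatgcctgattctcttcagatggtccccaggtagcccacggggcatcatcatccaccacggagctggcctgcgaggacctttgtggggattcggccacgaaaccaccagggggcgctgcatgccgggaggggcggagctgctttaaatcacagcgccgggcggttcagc
F11r: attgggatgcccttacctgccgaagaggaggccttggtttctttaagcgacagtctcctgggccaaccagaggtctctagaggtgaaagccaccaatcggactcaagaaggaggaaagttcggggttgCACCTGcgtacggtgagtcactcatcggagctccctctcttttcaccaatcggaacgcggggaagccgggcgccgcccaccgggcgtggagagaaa
The *Cldn1* stretch of 248 bases was 55.6% GC with 13 CpG, and the *F11r* stretch of 224 bases was 58.5% GC with 15 CpG. The E-box occurred once in the *F11r* stretch and nowhere in that of *Cldn1*, beside 20.2% of 32851 RefSeq promoters of 300 bases that hold it. The GLI consensus GACCACCCA, searched on both strands, was in neither, and 0.253% of all promoters hold it. The motifs do not overlap, and a match or its absence is a description of these windows only. The other members lie at chr16:18776847-18778262 (*Cldn5*, ENSMUSG00000041378), chr16:84774123-84825928 (*Jam2*, ENSMUSG00000053062), chr9:27097384-27155421 (*Jam3*, ENSMUSG00000031990), chr7:65296165-65527781 (*Tjp1*, ENSMUSG00000030516) and chr13:100496507-100552718 (*Ocln*, ENSMUSG00000021638) of GRCm38.

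The members differed in where their UMIs lay. *Cldn1* lay mostly in fibroblasts, with 80.9% (74.4 to 86.3) of 183 control UMIs and 98.3% of 917 SM22-SmoM2 UMIs. Most other *Cldn1* UMIs of the control lay in its 15 keratinocytes, with 22 UMIs. *Cldn5* was an endothelial gene in both libraries, with 97.4% of 6020 UMIs in control and 94.7% of 875 in SM22-SmoM2, and *Jam2* followed it with 89.4% and 88.8%. *F11r* was mostly endothelial in control, where endothelial cells held 92.4% and fibroblasts 3.63% of 2919 UMIs. In SM22-SmoM2 the endothelial share of *F11r* was 51.8% and the fibroblast share 45.9% of 1516 UMIs. These shares also move with the share of fibroblasts in each library, which is given above. *Jam3* was spread over Schwann cells (37.5% and 30.8%) and fibroblasts (35.7% and 55.7%), and *Tjp1* over endothelial cells (67.4% and 47.3%) and fibroblasts (14.8% and 39.0%). *Ocln* was near absent at this depth, with 1 and 4 UMIs in fibroblasts and 2 in the control keratinocytes.

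**Figure D1:**
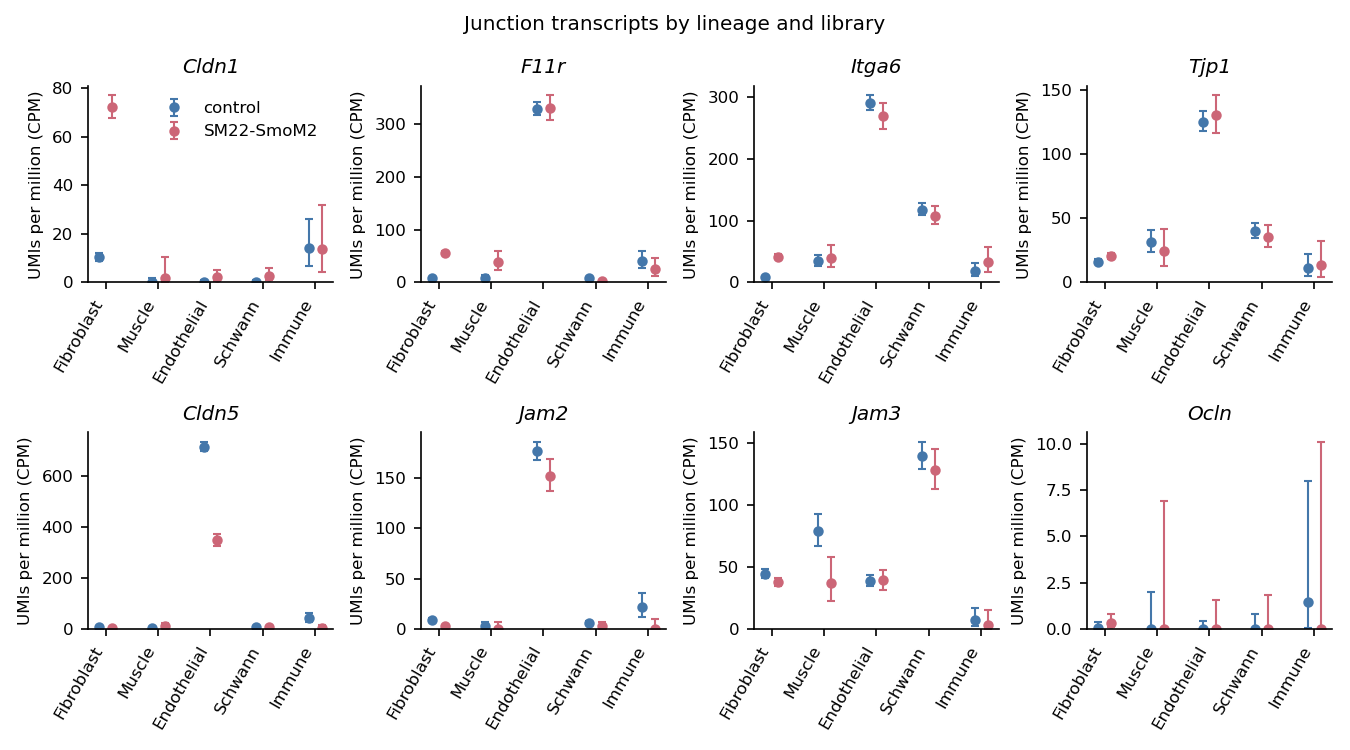
Level of each gene (CPM, linear axis from 0, scaled per gene) in 5 cell types, control and SM22-SmoM2 library side by side, with 95% counting intervals and 1 library per condition. *Cldn5* and *Jam2* were highest in endothelial cells in both libraries, while *Cldn1* and *F11r* in fibroblasts were at 10.5 and 7.51 CPM in control and at 72.2 and 55.8 CPM in SM22-SmoM2.

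In fibroblasts the claudin *Cldn1* and the adhesion molecule *F11r* were higher in SM22-SmoM2. *Cldn1* had 148 UMIs in control, or 10.5 CPM (8.86 to 12.3), and 901 in SM22-SmoM2, or 72.2 CPM (67.6 to 77.1), a log2 ratio of 2.78 (2.53 to 3.04). *F11r* had 106 UMIs, or 7.51 CPM (6.15 to 9.08), and 696 UMIs, or 55.8 CPM (51.7 to 60.1), a log2 ratio of 2.89 (2.60 to 3.20). Both genes were picked on this comparison, so the distance between their intervals is a description only. *Itga6* was at 8.71 CPM (7.24 to 10.4) and 41.6 CPM (38.1 to 45.3), a log2 ratio of 2.25 (1.97 to 2.55), whereas *Itgb1*, the β1 chain, had a log2 ratio of -0.31 (-0.37 to -0.24). *Cldn5* had 77 and 28 UMIs, a log2 ratio of -1.28 (-1.96 to -0.64), which was -0.18 after each cell had been thinned to 2500 UMIs. *Jam2* had 124 and 40 UMIs, a log2 ratio of -1.45 (-2.01 to -0.93). Both endothelial members were also low in Schwann cells. *Cldn5* was at 9.32 and 5.45 CPM there and at 5.45 and 2.24 CPM in fibroblasts. Whether fibroblasts express *Cldn5* was not tested, and no expression is read from these values. *Jam2* was at 5.72 and 2.97 CPM in Schwann cells and at 8.78 and 3.21 CPM in fibroblasts. Its control UMIs were uneven among the 1090 fibroblasts. A sub-cluster of 60 control cells led by *Thbs4* and *Cst6* held 21 of the 124 *Jam2* UMIs and 1 of the 77 *Cldn5* UMIs. In SM22-SmoM2 that sub-cluster had 3 cells, with 1 of the 40 *Jam2* UMIs. Whether fibroblasts express *Jam2* was not tested. *F11r* in Schwann cells was at 7.84 CPM (5.52 to 10.8) in control and 1.98 CPM in SM22-SmoM2. Its control interval there overlaps that of control fibroblasts. Smaller differences in fibroblasts were found for *Jam3*, at 44.4 and 37.6 CPM (-0.24, -0.42 to -0.07), and for the scaffold *Tjp1*, at 16.0 and 20.5 CPM (0.36, 0.09 to 0.62).

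Of the 6 members with at least 50 fibroblast UMIs over both libraries, 2 had a log2 ratio of 1 or more and 2 of -1 or less, while of all 11523 genes with that many UMIs 5.02% lay at 1 or more and 4.91% at -1 or less. Since *Cldn1* and *F11r* were picked on this comparison, nothing is read from these counts. The median log2 ratio was 0.06 over the members and -0.06 over all genes. In SM22-SmoM2 the UMIs were not those of a few cells, while in control the 10 highest cells held a larger share. *Cldn1* was detected in 74 control and 274 SM22-SmoM2 fibroblasts, with at most 7 and 21 UMIs in a cell, and the 10 highest cells held 31.8% and 13.9% of its UMIs. *F11r* was detected in 77 and 354 fibroblasts, with at most 6 and 12 UMIs in a cell, and the 10 highest held 30.2% and 11.9%. In both libraries most cells with *Cldn1* held fewer than 5 of its UMIs, and 4 control and 63 SM22-SmoM2 fibroblasts held 5 or more.

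**Figure D2:**
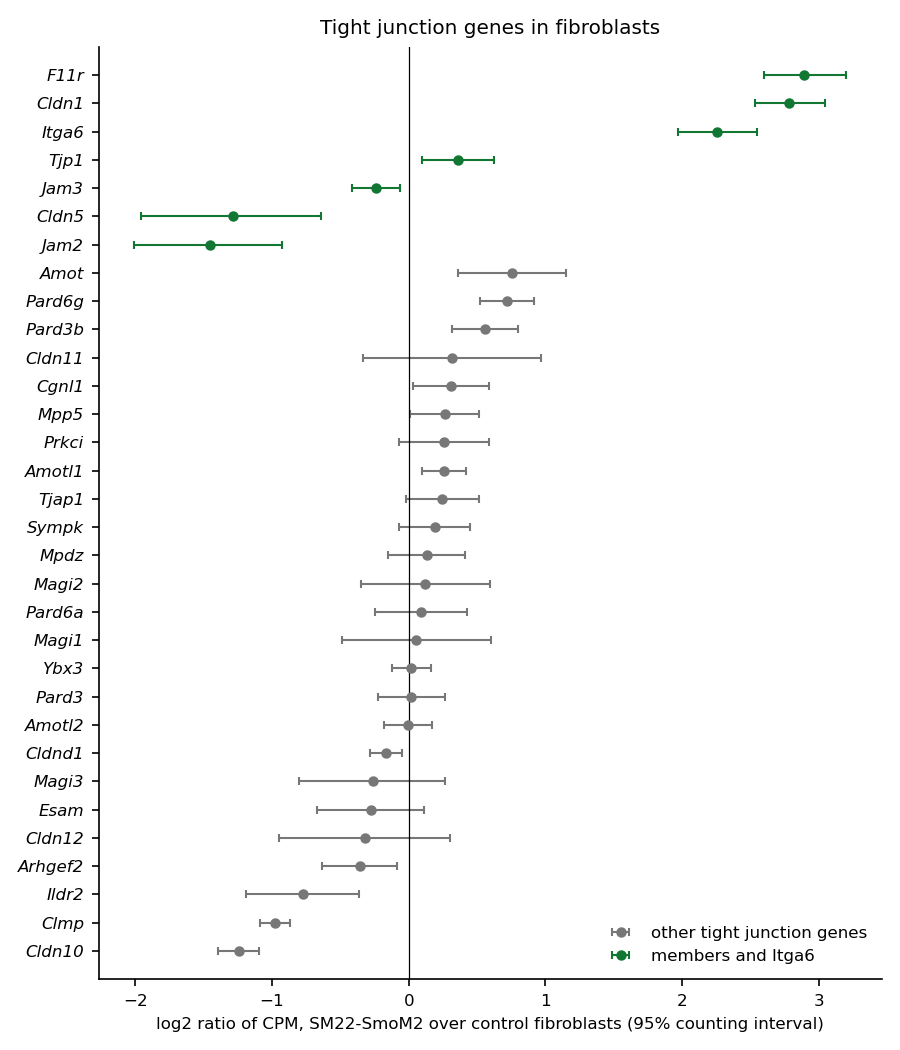
Log2 ratio of SM22-SmoM2 over control in fibroblasts for 6 members, *Itga6* and the other tight junction genes with at least 50 UMIs (1 of them not shown), with exact 95% counting intervals and 1 library per condition. *Cldn1* (2.78), *F11r* (2.89) and *Itga6* (2.25) lay right of 0, while *Cldn10* (-1.24), *Cldn5* (-1.28) and *Jam2* (-1.45) lay left of it.

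No other tight junction gene measured at this depth was as far above 0 as *Cldn1* and *F11r*, which were picked on this comparison. Of the 57 others found in the matrices, 6 were at 0 in fibroblasts and 26 had at least 50 fibroblast UMIs. None of these 26 had a log2 ratio of 1 or more and 1 had a ratio of -1 or less, beside 5.02% and 4.91% of all 11523 genes. Their median was 0.11. The gene at -1 or less was *Cldn10*, a channel-forming claudin, with 95.2 CPM (control) and 40.2 CPM (SM22-SmoM2) (-1.24, -1.39 to -1.09). *Clmp*, a relative of the coxsackievirus and adenovirus receptor, was next at -0.98, and the highest were *Amot* at 0.75 and *Pard6g* of the polarity complex at 0.72. Of 13 adherens junction genes, 12 had at least 50 UMIs and 2 had a log2 ratio of 1 or more, beside 5.02% of all 11523 genes. They were VE-cadherin (*Cdh5*), with 121 and 346 UMIs (1.69), and the nectin *Pvrl2*, with 27.8 and 63.0 CPM (1.18, 1.00 to 1.36). Gene lists were chosen with earlier results of these data known, so nothing is read from these counts. The 6 repressors of claudin genes were mixed, with 4 intervals above 0, 2 below it and a median log2 ratio of 0.13. The highest was *Snai1* at 0.65 (0.48 to 0.82) and the lowest *Snai2* at -0.82 (-1.10 to -0.55), with *Zeb1* at -0.74.

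Perineurial cells, the fibroblast-like cells that sheathe nerves, are known to carry *Cldn1* and tight junctions, so their markers were set beside the members. Of 9 such genes, 8 had at least 50 UMIs and 4 had a log2 ratio of 1 or more, beside 5.02% of all 11523 genes. They were *Lypd2* with 5 and 140 UMIs, *Dleu7* with 1 and 53, *Krt19* with 38 and 136, and *Itgb4*, the laminin-binding partner chain of *Itga6*, with 33 and 63. The list was chosen with earlier results of these data known, so nothing is read from this count. The glucose transporter *Slc2a1*, also in the list, had a ratio of -0.35, and the median of the list was 0.82. The part of perineurial cells in the *Cldn1* values was not tested.

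Within fibroblasts the level of *Cldn1* varied widely between sub-clusters. In SM22-SmoM2 it was highest in a sub-cluster of 213 cells led by *Mest*, *Wif1*, *Penk* and *Sfrp5*, at 263 CPM (243 to 284). This sub-cluster made up 19.4% of the SM22-SmoM2 fibroblasts and held 72.6% of their *Cldn1* UMIs, 57.0% of their *F11r* UMIs and 47.6% of their *Itga6* UMIs. It also held 70.0% of the *Lypd2*, 61.8% of the *Krt19*, 81.1% of the *Dleu7* and 55.6% of the *Itgb4* UMIs, and 7 of the 13 UMIs of the listed *Mpzl2*. The rest of the perineurial list (*Slc2a1*, *Moxd1*, *Perp* and *Ntn4*) was not measured by sub-cluster, so these shares do not describe the list as a whole. The next was a sub-cluster of 205 cells led by *Areg*, with 64.2 CPM *Cldn1*, 51.7 CPM *F11r* and 54.7 CPM *Itga6*. The genes did not keep 1 proportion: 159 cells led by *Wif1*, *Egfl6*, *Penk* and *Tnmd* had 16.6 CPM *Cldn1* beside 70.1 CPM *F11r*, and 160 cells led by *Wif1* and marked by *Sox11* had 1.91 and 18.5 CPM.

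The control fibroblasts also held *Cldn1*, in few cells. The 39 control cells of the *Mest*-led sub-cluster had 150 CPM (113 to 194), and 60 control cells of a sub-cluster led by *Thbs4* and *Cst6*, which held 3 SM22-SmoM2 cells, had 102 CPM (79.6 to 129). These sub-clusters held 38.5% and 46.6% of the control *Cldn1* UMIs. In the other control sub-clusters with at least 20 cells, *Cldn1* lay between 0 and 10.2 CPM.

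Between the libraries, within the *Mest*-led sub-cluster, *Cldn1* had a log2 ratio of 0.81 (0.42 to 1.23) and *F11r*, at 44.6 and 159 CPM, a ratio of 1.84 (1.14 to 2.63). *Itga6*, at 118 and 99.2 CPM, had a ratio of -0.25 (-0.72 to 0.24), an interval that includes 0. A cycling sub-cluster of 54 and 68 cells had *Cldn1* at 4.88 and 33.5 CPM (2.78, 1.40 to 4.50). Without the *Mest*-led sub-cluster, a setting added after the data were seen, the fibroblast ratio was 1.90 (1.55 to 2.26) for *Cldn1* and 2.21 (1.86 to 2.57) for *F11r*. With only those sub-clusters that hold at least 20 cells of each library, also added later, that of *Cldn1* was 3.64.

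**Figure D3:**
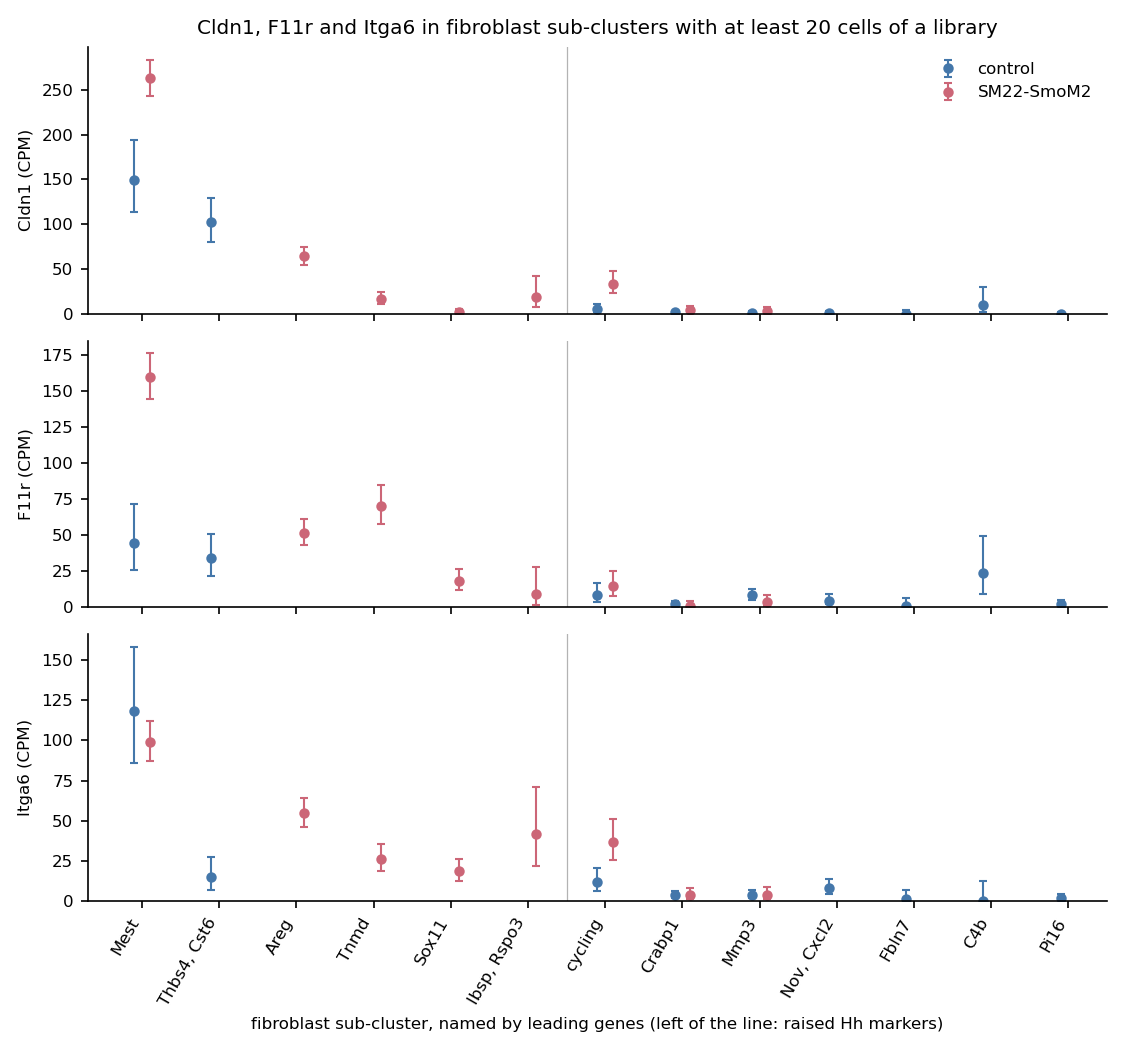
Level of *Cldn1*, *F11r* and *Itga6* (CPM) in each fibroblast sub-cluster with at least 20 cells, by library, with 95% counting intervals. The *Mest*-led sub-cluster had the highest *Cldn1* in both libraries (150 and 263 CPM), and *Itga6* there was at 118 and 99.2 CPM.

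Fibroblast sub-clusters were grouped by 5 Hh markers into Hh-active-like cells (117 control, 740 SM22-SmoM2), 46 SM22-SmoM2 cells with a further marker set (Hh-active II-like), and other fibroblasts (973 and 312). A sub-cluster needed 3 raised markers to be named Hh-active-like. The cycling sub-cluster, with 2 raised, was placed among other fibroblasts, although its *Ptch1* was at 2 (control) and 167 UMIs (SM22-SmoM2). It gave 167 of the 215 *Ptch1* UMIs and 31 of the 41 *Cldn1* UMIs of other SM22-SmoM2 fibroblasts. Inside the SM22-SmoM2 library *Cldn1* was at 10.5 CPM in other fibroblasts and 103 CPM in Hh-active-like fibroblasts, a log2 ratio of 3.29 (2.84 to 3.78). *F11r* was at 5.40 and 81.2 CPM (3.91, 3.29 to 4.61) and *Itga6* at 11.6 and 55.7 CPM (2.27). *Jam3* was at 33.9 and 37.5 CPM (0.14, -0.16 to 0.45) and *Tjp1* at 19.8 and 20.3 CPM (0.04, -0.36 to 0.44), intervals that include 0. Of the 4 members with at least 50 UMIs here, 2 lay at 1 or more and 0 at -1 or less, and of 9922 genes 6.88% and 5.37% did so. These classes are clusters of the same cells, so the values describe them and test nothing. *Cldn1* was uneven inside the Hh-active-like class of SM22-SmoM2. Its *Mest*-led sub-cluster gave 654 of the 854 *Cldn1* UMIs. The 159 cells led by *Wif1*, *Egfl6*, *Penk* and *Tnmd* gave 26, and the 160 cells marked by *Sox11* gave 3. The class value therefore does not describe each of its sub-clusters. The 46 Hh-active II-like cells had 19.2 CPM *Cldn1* (6 UMIs, 7.03 to 41.7) and 9.58 CPM *F11r* (3 UMIs, 1.98 to 28.0). Both intervals overlap those of other SM22-SmoM2 fibroblasts. *Itga6* was at 41.5 CPM (13 UMIs, 22.1 to 71.0) and *Jam3* at 86.2 CPM (27 UMIs, 56.8 to 125) in these 46 cells.

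Within the Hh-active-like class *Cldn1* was at 106 CPM (88.7 to 126) in control and 103 CPM (96.4 to 110) in SM22-SmoM2, a log2 ratio of -0.04 (-0.31 to 0.24). *Itga6* was at 53.0 and 55.7 CPM (0.07, -0.30 to 0.47), while *F11r* was at 35.3 and 81.2 CPM (1.20, 0.76 to 1.67). The class lay in different sub-clusters in each library: 60 of its 117 control cells, with 69 of its 132 control *Cldn1* UMIs, were of the *Thbs4*- and *Cst6*-led sub-cluster, which gave 3 of the 740 SM22-SmoM2 cells. The within-class values also rest on which control cells are named Hh-active-like, a class that held between 32 and 117 control cells over the clustering and filter settings tried. Over those 7 alternatives the ratio of *Cldn1* lay between -0.16 and 2.65 that of *F11r* between 1.03 and 2.85 and that of *Itga6* between -0.97 and 0.78, so that no direction can be given for *Cldn1* and *Itga6* within the class. Among other fibroblasts *Cldn1* was at 1.24 and 10.5 CPM (3.08, 2.22 to 4.02), with a range of -1.02 to 3.00 over the same alternatives, and *F11r* at 4.82 and 5.40 CPM (0.17, -0.62 to 0.90), with a range of -2.52 to 0.35, so that no direction can be given for other fibroblasts either. The SM22-SmoM2 value of *Cldn1* there rests mostly on the cycling sub-cluster, with 31 of 41 UMIs.

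The members were also set against Hh markers cell by cell, with each cell thinned to 2500 UMIs and SM22-SmoM2 fibroblasts split by their summed UMIs of *Gli1*, *Gli2*, *Ptch1* and *Hhip*. *Cldn1* was detected in 7.74% of 672 cells without such a UMI, 15.5% of 258 with 1, 21 of 112 with 2 and 17.9% of 56 with 3 or more. *Itga6* was at 7.29%, 10.5%, 15.2% and 21.4% in the same order. *F11r* was at 6.70%, 18.2%, 17.9% and 7 of 56 cells. *Jam3* was at 7.29%, 8.14%, 11.6% and 8.93%, *Tjp1* lay between 4.46% and 5.36% throughout, and *Cldn10* was at 10.3% without and 3.49%, 2.68% and 1.79% with Hh UMIs. The shares with 1, 2 and 3 or more Hh UMIs had overlapping intervals for every gene. Without a Hh UMI and with 3 or more, the intervals of *Cldn1* (5.83 to 10.0 and 8.91 to 30.4), *F11r* and *Cldn10* overlapped too, while those of *Itga6* did not. Without and with 1 Hh UMI those of *Cldn1* (11.3 to 20.5 with 1) lay apart. So did those of *F11r* (4.93 to 8.86 and 13.7 to 23.5) and *Cldn10* (8.08 to 12.8 and 1.61 to 6.52). Those of *Itga6*, *Jam3* and *Tjp1* overlapped there. The median depth before thinning was 11274, 10523.5, 10235 and 7957 UMIs. In control fibroblasts *Cldn1* was detected in 2.33% of 1029 cells without a Hh UMI and 9.09% of 55 with 1, with intervals that overlap.

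**Figure D4:**
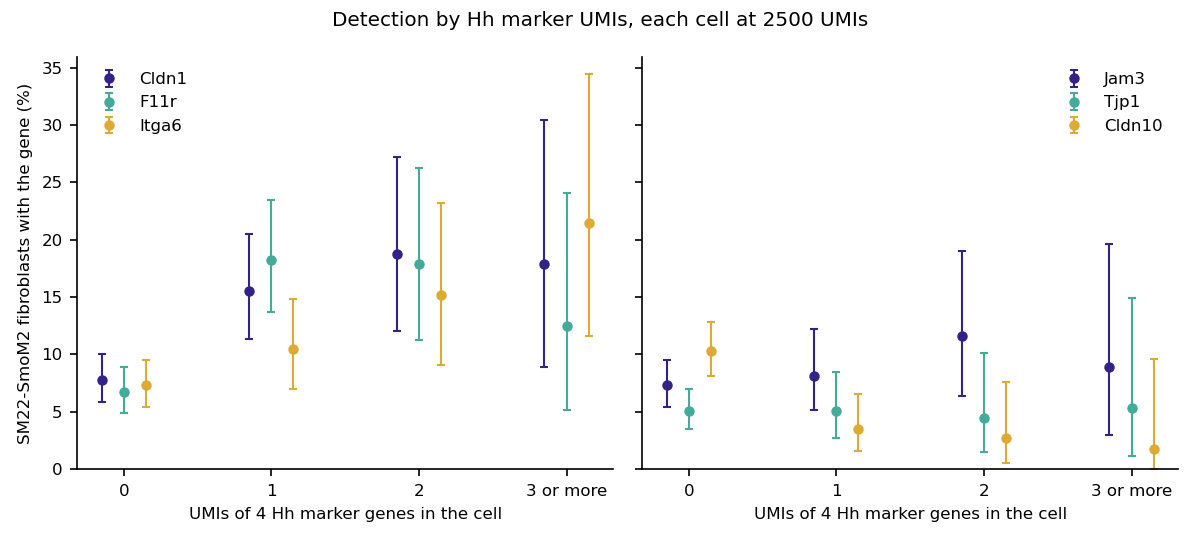
Percent of SM22-SmoM2 fibroblasts with a UMI of each gene at 2500 UMIs per cell, by the cell's summed UMIs of 4 Hh markers, with exact 95% binomial intervals. *Cldn1* stood at 7.74% without Hh UMIs and at 17.9% with 3 or more, and *Cldn10* at 10.3% and 1.79%, with intervals that overlap for both genes. For both, the intervals without and with 1 Hh UMI lay apart.

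At 2500 UMIs per cell *Cldn1* was detected in 2.84% (31) of control and 11.2% (123) of SM22-SmoM2 fibroblasts, *F11r* in 2.02% and 10.8%, and *Itga6* in 2.20% and 9.56%. In Schwann cells *Cldn1* was detected in 0.147% of 678 control cells and in 0 of 294 SM22-SmoM2 cells. The count of 0 allows a share of cells with a UMI of up to 1.02% (3 cells). Without thinning *Cldn1* was detected in 1 and 4 Schwann cells. The median depth before thinning was 12473 and 10947.5 UMIs in fibroblasts and 5959.5 and 5545.5 in Schwann cells. *F11r* in Schwann cells was at 1.03% (0.42 to 2.12) in control, beside 2.02% (1.27 to 3.04) in control fibroblasts, intervals that overlap. In SM22-SmoM2 Schwann cells it was at 0.340%. *Itga6* was found in 22.4% and 23.8% of Schwann cells and, more often, in 48.3% and 47.8% of endothelial cells. Endothelial cells held 75.5% of all its control UMIs and 45.3% of those in SM22-SmoM2. Of 82 control immune cells 3.66% had it.

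Fibroblasts with *Cldn1* had *F11r* and *Itga6* more often than those without. In SM22-SmoM2, 24.4% (17.1 to 33.0) of the 123 fibroblasts with *Cldn1* also had *F11r*, and 9.13% (7.39 to 11.1) of the 975 without it did. *Itga6* was found in 19.5% (12.9 to 27.6) of the former and 8.31% (6.65 to 10.2) of the latter. In control the shares with *F11r* were 9.68% (2.04 to 25.8) of 31 and 1.79% of 1059, and those with *Itga6* were 9.68% and 1.98%, each resting on 3 cells with both genes and with intervals that overlap. Other genes served as a scale in SM22-SmoM2: *Jam3* was at 6.50% with and 8.21% without *Cldn1*, *Tjp1* at 7.32% and 4.72%, *Ptch1* at 40.7% and 26.8%, and *Cldn10* at 0 of 123 cells and 8.41%. *Cdh5* was at 22.0% and 3.38% and *Krt19* at 8.13% and 0.513%. Without thinning, 22 control and 181 SM22-SmoM2 fibroblasts had both *Cldn1* and *F11r*, and 9 and 98 had all 3 genes, 67 of the 98 in the *Mest*-led sub-cluster and 27 in the *Areg*-led one.

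Inside the *Mest*-led sub-cluster of SM22-SmoM2 this difference was not seen at equal depth. There *F11r* was in 25.6% (16.8 to 36.1) of 86 cells with *Cldn1* and in 27.6% (20.0 to 36.2) of 127 without, and *Itga6* in 18.6% and 25.2%. In the *Areg*-led sub-cluster *F11r* was in 16.0% of 25 and 10.6% of 180 cells, and *Itga6* in 28.0% and 10.6%. Without thinning, *F11r* in the *Mest*-led sub-cluster was in 77.8% of 162 cells with *Cldn1* and 56.9% of 51 without, and *Itga6* in 48.8% and 37.3%. Those values were not set to equal depth. Thinning left 86 of the 162 cells with a *Cldn1* UMI, so many of the 127 cells counted as without it do hold it. The comparison at 2500 UMIs therefore cannot show whether the genes go together inside this sub-cluster.

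**Figure D5:**
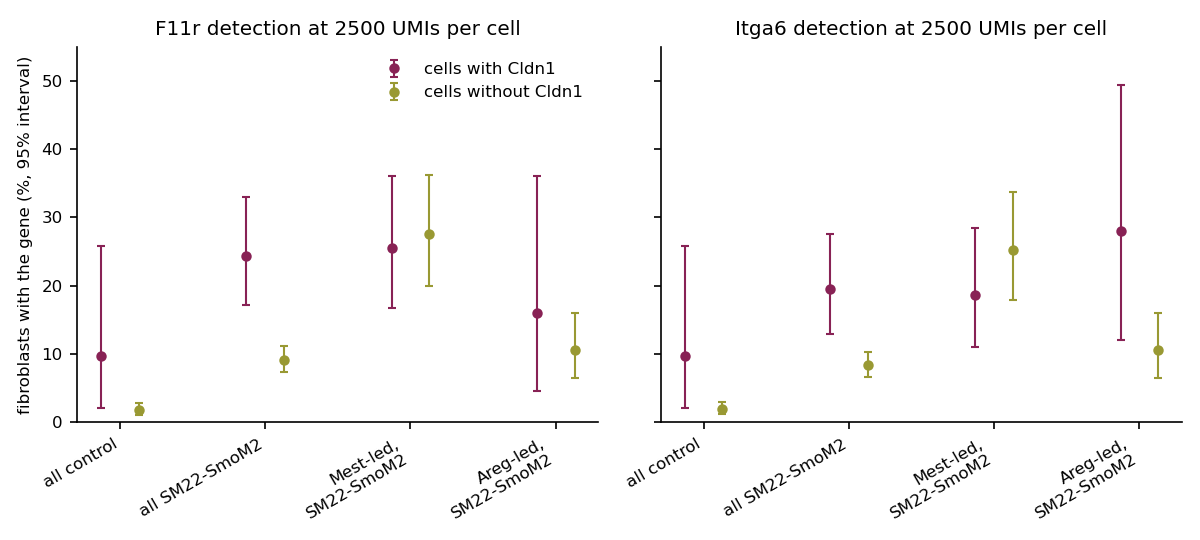
Percent of fibroblasts with *F11r* and with *Itga6* at 2500 UMIs per cell, among cells with and without *Cldn1*, in each library and within 2 SM22-SmoM2 sub-clusters, with exact 95% binomial intervals. Over all SM22-SmoM2 fibroblasts *F11r* stood at 24.4% with and 9.13% without *Cldn1*, and within the *Mest*-led sub-cluster at 25.6% and 27.6%.

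Markers of other cell types were measured in the same fibroblasts. The 16 keratinocyte markers summed to 82.5 CPM (control) and 73.9 CPM (SM22-SmoM2), with *Krt14* at 15 and 6 UMIs, *Krt5* at 5 and 2 UMIs and *Dsg3* at 0 in both. The sums hide differences between genes: *Lgals7* had 244 and 38 UMIs. Only 3 of the 16 had at least 50 UMIs over both libraries, with log2 ratios from -2.50 to 0.77. In SM22-SmoM2 fibroblasts with *Cldn1* the list summed to 92.8 CPM, with 6 of its genes (*Krt5*, *Krt17*, *Epcam*, *Dsp*, *Dsg3* and *Dsc3*) at 0, and to 66.5 CPM in those without. In control fibroblasts it summed to 222 CPM with *Cldn1*, with 11 of its genes at 0, *Krt5* and *Krt14* among them, and to 72.8 CPM without. The 8 endothelial markers summed to 79.7 and 73.9 CPM in fibroblasts, beside 5083 and 4728 CPM in endothelial cells. *Cdh5* alone gave 121 of their 1125 fibroblast UMIs in control and 346 of 922 in SM22-SmoM2. Of the 7 with at least 50 UMIs, 2 had intervals above 0 and 4 below, with a median log2 ratio of -0.49. In SM22-SmoM2 they were at 136 CPM in fibroblasts with and 49.6 CPM in those without *Cldn1*, and in control at 170 and 73.5 CPM, and *Cdh5* is both an endothelial marker and one of the genes above. *Pecam1* at 2500 UMIs was in 2.44% of SM22-SmoM2 fibroblasts with *Cldn1* and 2.77% of those without. For each UMI of *Cldn5*, endothelial cells held 0.460 (control) and 0.948 (SM22-SmoM2) of *F11r*, and fibroblasts 1.38 and 24.9. When Scrublet doublets were left out and the cells clustered again, 45 control and 95 SM22-SmoM2 cells, with 55 and 431 *Cldn1* UMIs, fell into mixed fibroblast sub-clusters. A sub-cluster was named mixed where its 10 leading genes held more listed markers of another cell type than of fibroblasts. The part of other cell types in the *Cldn1* and *F11r* values was not tested.

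In endothelial cells the members differed in another way. *Cldn5* was lower in SM22-SmoM2, at 715 CPM (697 to 733) in control and 349 CPM (325 to 373) in SM22-SmoM2, a log2 ratio of -1.04 (-1.14 to -0.93). *F11r* was level, at 329 and 330.5 CPM (0.01, -0.11 to 0.12), as were *Tjp1* at 125 and 131 CPM (0.06, -0.13 to 0.24) and *Jam3* at 38.7 and 39.1 CPM, while *Jam2* was at 177 and 153 CPM (-0.21, -0.38 to -0.05). Of the 5 members with at least 50 endothelial UMIs, 0 lay at a log2 ratio of 1 or more and 1 at -1 or less, beside 0.693% and 1.51% of 9952 genes. The *Cldn5* difference was not the same in every endothelial cluster. A cluster led by *Cldn5* itself, with *Rbp7* and *Gpihbp1* also among its leading genes, had 1577 CPM (control) and 660 CPM (SM22-SmoM2) (-1.26, -1.45 to -1.07) and made up 26.6% and 16.3% of the endothelial cells. A cluster led by *Ccl21a*, *Fabp4* and *Lrg1* had 475 and 239 CPM (-0.99, -1.23 to -0.76). A cluster led by *Lrg1* and *Emcn*, with *Selp*, had 276 and 248 CPM (-0.15), and a further one had 381 and 405 CPM (0.09).

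Among the other lineages, muscle cells had 16 *F11r* UMIs in control (8.55 CPM) and 21 in SM22-SmoM2 (39.3 CPM), a log2 ratio of 2.20 (1.19 to 3.24), from 12 of 272 and 15 of 94 cells with at most 2 UMIs each. Their *Jam3* was at 79.1 and 37.4 CPM (-1.08, -1.83 to -0.40). Schwann cells had 660 and 259 *Jam3* UMIs, or 140 and 128 CPM (-0.12), and *F11r* at 37 and 4 UMIs (-1.98, -3.93 to -0.51). Immune cells had *Cldn1* at 10 and 5 UMIs, or 14.3 and 13.7 CPM. The 15 control keratinocytes had *Cldn1* at 75.0 CPM and *F11r* at 113 CPM.

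The genes whose level was most like that of *Cldn1* over 25 groups of cells (lineages and fibroblast sub-clusters of each library with at least 20 cells, on the log2(CPM + 10) scale) were *Clic6* (Pearson r = 0.88), *Crabp2* (0.84), *Sult5a1* (0.83), *Tpbgl* (0.81) and *Gjb2* (0.81). In fibroblasts *Clic6* had 8 and 143 UMIs, *Gjb2*, a gap junction gene, 35 and 201, and *Crabp2*, a retinoic acid binding protein, 272 and 695. The genes most like *F11r* were *Cdh5* (0.87), *Frmd4b* (0.86), *2200002D01Rik* (0.86), *Rapgef3* (0.84) and *Bvht* (0.83). *F11r* itself had r = 0.39 with *Cldn1* over the 25 groups and 0.84 over the 17 fibroblast groups, and *Itga6* had 0.26 and 0.84. The groups share 2 libraries and differ in depth, so these values are a description.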

How the data were processed

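Tomato+ wound cells were profiled with the 10x 3′ kit (v2), 1 library per condition. The authors deposited whole-number UMI counts per gene and cell for mm10, and the submitters' processing notes name bcl2fastq and Cell Ranger, with no version given in the sources used here. Whether counting used strand is not stated, so reads of *Jam3*, *Tjp1* and *Itga6* may include overlapping genes of the opposite strand. *Jam2*, *Tjp1* and *Itga6* also overlap genes of their own strand. UMIs count transcript 3′ ends and carry no length scale.

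Cells with over 10% mitochondrial UMIs or under 200 genes were left out. Counts were scaled to 10000 per cell and logged, 2000 variable genes without the junction genes and *Itga6* gave 20 principal components, and k-means (K = 20, fibroblasts K = 15, 50 starts, scikit-learn 1.9.0, scanpy 1.11.5, Python 3.11.15) gave clusters. These were named from markers, and 17 control and 2 SM22-SmoM2 cells of fibroblast sub-clusters with markers of other types were left out. Doublets were kept, and Scrublet, which marked 6 and 10 cells, was an alternative. UMI sums were given as CPM with exact Poisson intervals, ratios with exact conditional binomial intervals and shares with Clopper-Pearson intervals (scipy 1.17.1). The ratio script was tested on simulated data. A log2 ratio of at least 1 either way, with at least 50 UMIs over both libraries, was counted for all genes. Named genes were the members, *Itga6*, listed genes, other tight junction genes past that ratio, and the 5 genes with the highest r to *Cldn1* and to *F11r*. Other genes, such as *Clmp*, *Amot* and the leading genes of clusters, were named after their values were seen. The members and gene lists were chosen with earlier results of these data known. Alternatives covered filters, doublets, K, Leiden clustering, junction genes in the clustering, thinning, weighting of cells, cells without keratinocyte UMIs and male cells alone. The split by Hh UMIs, made after the data were seen, used 4 of the 5 Hh markers, and values of 2 genes are not reported here.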

Additional observations from a re-analysis of the deposited data

Results flagged for a closer look

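*F11r* differed in direction between cell types: its log2 ratio of SM22-SmoM2 over control was 2.89 in fibroblasts and 2.20 in muscle cells but -1.98 in Schwann cells. With 1 library per condition the difference was not tested. The Schwann value rests on 37 and 4 UMIs and the muscle value on 16 and 21.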

How the results depend on the processing

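With 1 library per condition and pooled mice, animal, batch and genotype cannot be told apart, and low counts limit *Ocln* in all cell types and *Cldn1*, *F11r* and *Jam2* in muscle, Schwann and immune cells. No paired analysis was possible because each condition has 1 library. Of 287 values recomputed under alternatives, 214 moved by less than their interval, 68 moved by more and 5 turned a ratio whose interval had excluded 0. In all, 18 changed sign. The fibroblast ratio stayed above 0 for *Cldn1* (1.90 to 3.64), *F11r* (2.21 to 3.21) and *Tjp1* (0.22 to 0.42) and below 0 for *Cldn5* (-1.81 to -0.18) and *Jam2* (-1.82 to -1.14) under all 13 alternatives. It was 3.16 for *Cldn1* and 3.21 for *F11r* with Leiden clustering, 2.46 for *Cldn1* with the mean of per-cell CPM, 2.27 for *Cldn1* and -0.18 for *Cldn5* after thinning. In the 2 alternatives chosen after seeing the data, it was 3.64 for *Cldn1* and 0.15 for *Jam3*, a change of sign, when sub-clusters with under 20 cells in a library were left out, and 1.90 for *Cldn1*, 2.21 for *F11r* and -0.43 for *Jam3* without the *Mest*-led sub-cluster. The cause was not tested. The ratio of Hh-active-like over other SM22-SmoM2 fibroblasts was 3.87 for *Cldn1* and 6.19 for *F11r* without the mitochondrial filter, 2.70 for *Cldn1* without Scrublet doublets, 3.80 for *Cldn1* with K = 30 and 20, and 4.72 and 5.33 with Leiden clustering. In the first 3 of these settings the Hh-active II-like cells were named muscle. Among other fibroblasts the ratio between libraries turned to -0.10 for *Cldn1*, -0.071 for *Itga6* and -2.52 for *F11r* without the mitochondrial filter, to -1.02, -0.58 and -1.58 with Leiden clustering, and to -1.01 for *F11r* without Scrublet doublets. Within the Hh-active-like class *Itga6* was at -0.97 with K = 12 and 10 and at 0.78 with Leiden clustering. Endothelial *Cldn5* was at -1.15 with a 5% mitochondrial limit. Endothelial shares of control UMIs were 91.1% for *F11r* and 96.1% for *Cldn5* without the mitochondrial filter, 90.8% and 94.8% with K = 12 and 10 (88.1% for *Cldn5* in SM22-SmoM2), and 93.5% for *F11r* with Leiden clustering, where its fibroblast share was 2.79%. Without Scrublet doublets the fibroblast share of *Cldn1* was 72.7% in control and 95.6% in SM22-SmoM2, and *F11r* in SM22-SmoM2 was at 61.4% endothelial and 35.9% fibroblast. Scrublet marked 6 and 10 cells, but in that clustering 45 and 95 cells, with 55 and 431 *Cldn1* UMIs, fell into sub-clusters of mixed markers and were left out, so the change is not that of the doublets alone. Co-detection moved with depth by construction. At 1500 UMIs *F11r* was in 12.6% of SM22-SmoM2 fibroblasts with and 6.98% without *Cldn1* (control without, 0.839%), and *Itga6* in 11.6% and 4.49%. At 5000 UMIs the *F11r* shares were 45.9% and 14.2%, and *Itga6* with *Cldn1* was at 36.8% (control 28.6%). Without thinning the shares were 29.7% and 5.41% for *F11r* and 35.1% and 5.02% for *Itga6* in control, and 66.1% and 21.0%, and 48.9% and 14.1%, in SM22-SmoM2. In SM22-SmoM2 fibroblasts with 0 keratinocyte UMIs, *F11r* was in 17.0% with and 6.94% without *Cldn1*, and *Itga6* in 6.57% without. With a minimum of 10 UMIs, 7.85% of genes were at a log2 ratio of 1 or more in fibroblasts.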
